A study of Mus musculus with 15 samples.

Results

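The 6 STAT genes read here were Stat5a and Stat5b, the pair that the siRNAs target, and Stat2, Stat3, Stat4 and Stat6. They were taken as every probe set whose platform annotation gives 1 of these symbols, which made 12 of 36701 non-control probe sets and 6 of 15964 named genes. Stat3 had 4 probe sets, Stat2, Stat5a and Stat5b had 2 each, and Stat4 and Stat6 had 1 each. Of the 12, 7 lay on the U74A array, 3 on U74B and 2 on U74C, the designs of the Affymetrix murine U74 set.

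The cells were Ba/F3-beta, a mouse line that depends on interleukin-3 (IL-3) for growth. They had been transfected with siRNAs against both Stat5A and Stat5B and given IL-3 for 30 min, with control (scramble I) siRNA and IL-3 for 30 min, with the Stat5 siRNAs and IL-3 for 2 h, with control siRNA and IL-3 for 2 h, or with control siRNA and no IL-3. Each of the 5 conditions had 1 array per design, 15 arrays in all, so no difference below has a replicate check and no p-value was computed. All cells carried an siRNA, and none of the 15 arrays held Stat5 siRNA cells without IL-3. Whether a siRNA difference was present before IL-3 was therefore not measured.

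STAT proteins wait in the cytoplasm until a cytokine receptor is engaged. Janus kinases bound to the receptor then phosphorylate them, they pair up, enter the nucleus and bind DNA. STAT5A and STAT5B are close relatives that the IL-3 receptor activates through its beta chain. STAT3 is best known downstream of IL-6 family cytokines, STAT4 of IL-12 and STAT6 of IL-4, while STAT2 joins IRF9 in the complex that turns on interferon-stimulated genes.

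Values are MAS5 signals, the array software's summary of how brightly a probe set was bound. A signal of 119.866, called the floor, stands for the lowest level taken as measured. A ratio was formed where either of its arrays was at or above the floor, after lifting lower signals to it. A difference of 2-fold, a log2 ratio of 1 in size, was the limit for a call. The technical spread of a ratio is the SD between probe sets of the same gene on 1 design. The siRNA ratio at 30 min had a spread of 0.19 on U74B, against 0.22 on U74A and 0.33 on U74C. Of the 12 STAT probe sets 8 reached the floor on 1 array or more, and 4 did not on any.

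The deposited arrays lay at 1 level, with trimmed means between 150.04 and 150.1. Between 37.0% of probe sets on U74A and 42.8% on U74B reached the floor. Of 11 pro-B and B lineage markers on the arrays, Cd79b and Ptprc were the 2 that reached it, and Cd79a, Pax5, Ebf1, Vpreb1, Igll1, Cd24a, Rag1, Blk and Il7r were under it on all 5 arrays. Of 11 myeloid and mast cell markers 2 did, Csf2rb and Spi1, of 7 T and NK markers 0 did, and of 7 fibroblast and epithelial markers 2 did, Cdh1 and Epcam. The B lineage markers summed to between 924 and 1248 over the 5 conditions, the T and NK markers to between 88.1 and 108, and the fibroblast and epithelial markers to between 631 and 743. The myeloid and mast sum was 5796 with Stat5 siRNA and 8783 with control siRNA at 30 min, and 8525 with Stat5 siRNA and 9134 with control siRNA at 2 h. Most of it was Csf2rb, a beta chain of the IL-3 receptor.

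Stat5a was lower in Stat5 siRNA cells at both times, by close to the 2-fold limit. Its brighter probe set, 100422_i_at on U74A, had a signal of 277 with Stat5 siRNA and 548 with control siRNA at 30 min. At 2 h it had 255 with Stat5 siRNA and 475 with control siRNA, and control cells without IL-3 had 543. Both siRNA arrays were below all 3 control arrays. The siRNA cells kept 50.6% of the control signal at 30 min and 53.6% at 2 h.

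The other Stat5a probe set, 100423_f_at, lies on the same array and gave the same picture. It had 150 with Stat5 siRNA and 316 with control siRNA at 30 min, 96.5 with Stat5 siRNA and 254 with control siRNA at 2 h, and 315 without IL-3. The siRNA array at 2 h was under the floor, so the change there was at least 2.12-fold, and at 30 min it was 2.10-fold. The suffixes _i_at and _f_at mark probe sets whose probes are few or shared within a gene family, so both Stat5a readings can contain signal from Stat5b. How much was not tested.

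On the log2 scale the siRNA ratios of the 2 Stat5a probe sets were -0.98 and -1.07 at 30 min. At 2 h they were -0.90 and -1.08, of which -1.08 is a bound. These are 4.17 to 5.02 times the technical spread of a ratio. At 30 min they ranked 10th and 7th from the lowest of 4315 measured U74A probe sets, and at 2 h 23rd and 12th of 4296. As a gene Stat5a stood at -1.03 at 30 min and -0.99 at 2 h, on either side of the limit, a gap far smaller than the spread. With the floor doubled to 239.732 the gene's ratio at 30 min was -0.69, under the limit. There the siRNA signal of 100423_f_at was lifted to the floor, while that of 100422_i_at stayed above it.

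Stat5b was read at a lower share of its control signal at 30 min than Stat5a. With the floor halved the order turned, with Stat5b at -0.94 and Stat5a at -1.03. There a dim U74A probe set of Stat5b entered with its siRNA signal lifted to the floor, so its ratio was a bound. The U74B probe set of Stat5b, 113125_at, had 166 with Stat5 siRNA and 499 with control siRNA at 30 min. At 2 h it had 126 with Stat5 siRNA and 177 with control siRNA, and control cells without IL-3 had 536. The siRNA array at 30 min lay with both arrays taken at 2 h, far below the control arrays at 30 min and without IL-3. Stat5 siRNA cells kept 33.2% of the control signal at 30 min, a 3.01-fold fall, and 71.3% at 2 h.

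The log2 siRNA ratio of Stat5b was -1.59 at 30 min, 8.26 times the spread and the second lowest of 4804 measured U74B probe sets. At 2 h it was -0.49, 1.98 times the spread and 289th from the lowest of 4950. A fall of 2-fold with Stat5 siRNA was seen in 2 of the 3 measured Stat5 probe sets at 30 min and in 1 at 2 h, against 0.446% and 0.564% of all probe sets measured on the 3 designs. By design the share was 0.185% on U74A and 0.146% on U74B at 30 min, and 0.326% and 0.323% at 2 h. The call at 2 h was that of 100423_f_at for Stat5a, whose siRNA signal was under the floor and which can cross-hybridise. With arrays scaled to a common median the calls over all probe sets at 30 min shifted to 51 higher and 88 lower, against 55 higher and 59 lower.

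The second Stat5b probe set, 92199_at on U74A, did not reach the floor in any condition and gave no ratio. Its signals were 30.8 with Stat5 siRNA and 73.2 with control siRNA at 30 min, 27.5 with Stat5 siRNA and 47.7 with control siRNA at 2 h, and 60.9 without IL-3. No order is read from signals under the floor. With the floor halved this probe set entered the Stat5b value, which then no longer passed 2-fold at 30 min. Its siRNA signal of 30.8 was lifted there to the halved floor of 59.93, so its ratio was a bound.

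**Figure D1:**
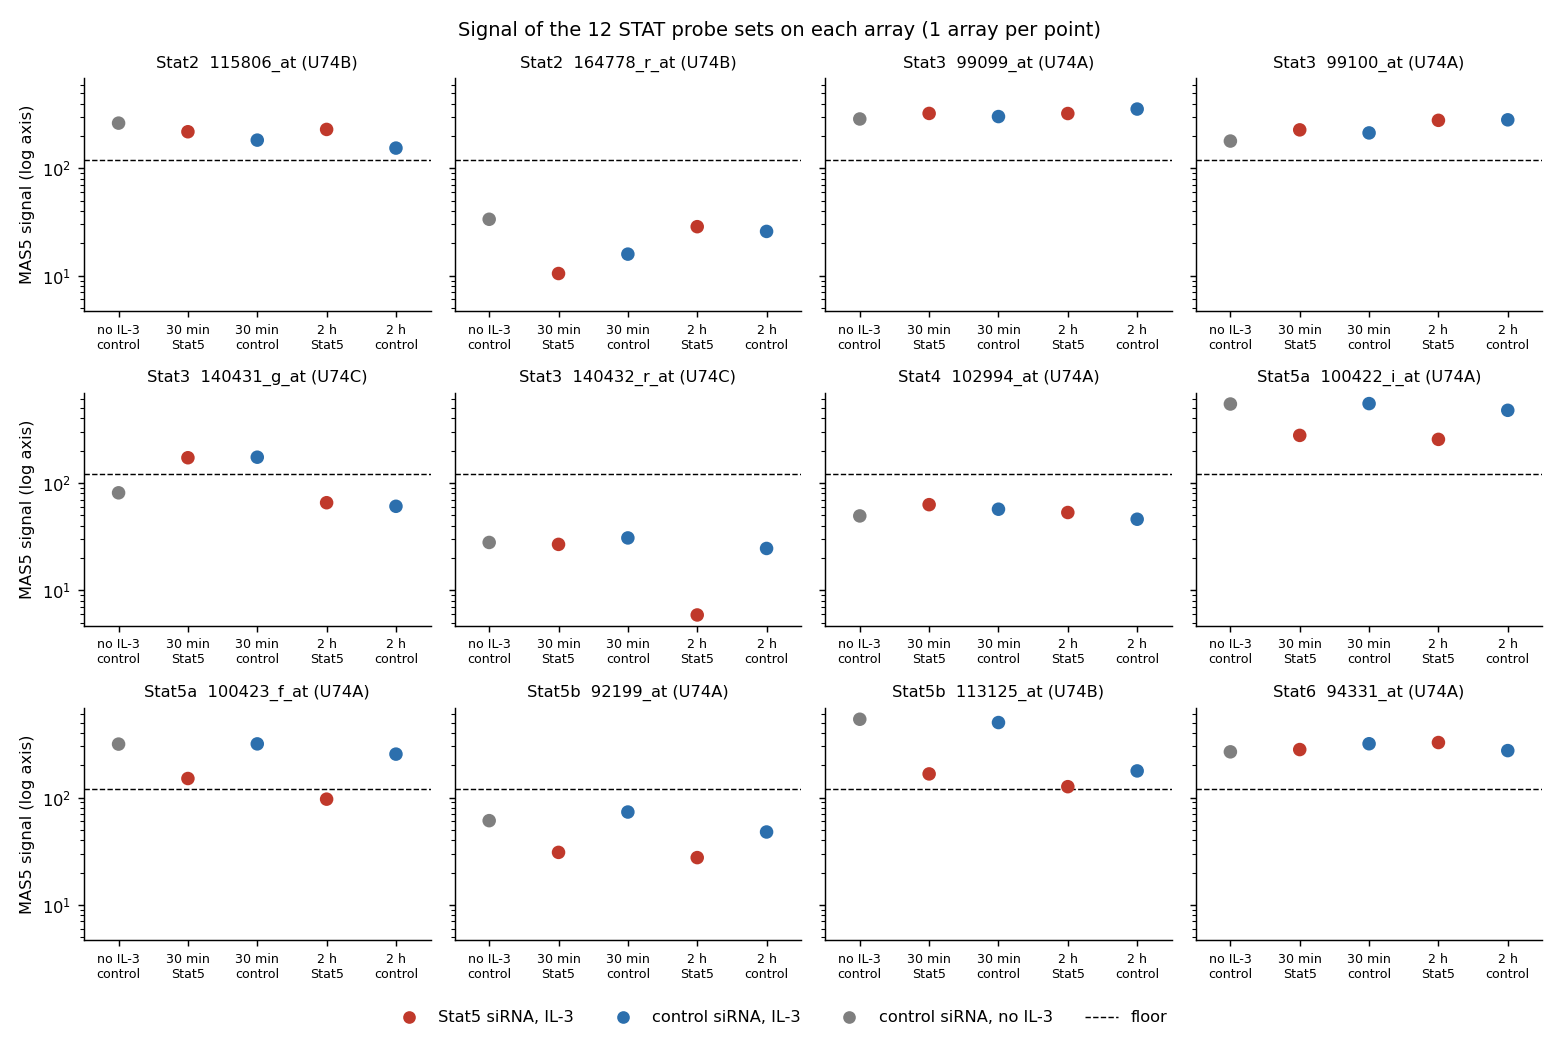
MAS5 signal (log axis) of each of the 12 STAT probe sets on its 5 arrays, 1 point per array, with Stat5 siRNA in red, control siRNA with IL-3 in blue, control siRNA without IL-3 in grey and the floor dashed. Both Stat5a probe sets are lower in red than in blue at both times, while Stat5b on U74B is at 166 in red and 499 in blue at 30 min and at 126 in red and 177 in blue at 2 h.

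In control cells Stat5b was also lower at 2 h of IL-3 than without it, on 1 measured probe set with 1 array per time. The same array without IL-3 serves both times. The U74B signals were 536 without IL-3, 499 at 30 min and 177 at 2 h, so most of the change took place between the second and the last of these times. After 2 h of IL-3 Stat5b was 3.03-fold lower than without it, at 33.0% of that signal. The log2 ratio of -1.60 was 5.19 times the spread and 13th from the lowest of 5053 measured U74B probe sets. Such a fall at 2 h was found in 2.04% of all measured probe sets, and at 30 min, where 0 of the 3 Stat5 probe sets passed, in 0.587%. By design the share at 2 h was 2.81% on U74B and 0.918% on U74A. With the floor halved, where the dim U74A probe set joins with its 2 h signal lifted to that floor, the gene's ratio was -0.81.

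In Stat5 siRNA cells the Stat5b signal was 166 at 30 min and 126 at 2 h, a log2 ratio of -0.40 between the times, against -1.50 in control cells. Falls of 2-fold between the times made up 1.27% of measured probe sets in Stat5 siRNA cells and 1.73% in control cells. The siRNA ratio at 2 h minus that at 30 min was therefore 1.10 for Stat5b. That difference was 3.81 times its technical spread of 0.29 and ranked 19th from the highest of 4508 U74B probe sets measured at both times. The same control array at 2 h enters the IL-3 ratio and the siRNA ratio at that time, and the siRNA signal of 126 lies just above the floor. For the Stat5a probe sets the same difference was 0.08 and -0.01, within a spread of 0.32.

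Stat5a kept its level under IL-3 far more closely. Its brighter probe set had log2 ratios of 0.01 at 30 min and -0.19 at 2 h against no IL-3. The family probe set had 0.01 and -0.31. All 4 values lay within 1.54 times the spread.

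Stat5b, Stat5a and Stat3 are direct neighbours on mouse chromosome 11, and the RefSeq table places the starts of Stat5b and Stat5a on opposite strands. Because the 2 genes differed in their course under IL-3, the sequences before their starts are shown. RefSeq (GRCm38.p6) lists 2 start windows for each of them, and the pair most alike is printed, 250 bases before the start. These are chr11:100860234-100860483 on the plus strand for Stat5a and chr11:100822571-100822820 on the minus strand for Stat5b. The other window of each gene lies upstream of the printed window and is not shown, chr11:100859406-100859655 for Stat5a and chr11:100850582-100850831 for Stat5b. Capitals mark identical runs of 8 bases or more in their best local alignment, which spans 94 columns with 74 identical bases, 78.7%. The pair was picked for likeness, and no background for this share was computed.
Stat5a: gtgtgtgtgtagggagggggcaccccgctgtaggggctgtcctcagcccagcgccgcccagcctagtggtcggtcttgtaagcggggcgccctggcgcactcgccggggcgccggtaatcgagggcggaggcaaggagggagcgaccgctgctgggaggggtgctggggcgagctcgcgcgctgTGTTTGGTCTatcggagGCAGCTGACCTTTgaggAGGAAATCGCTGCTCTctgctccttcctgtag
Stat5b: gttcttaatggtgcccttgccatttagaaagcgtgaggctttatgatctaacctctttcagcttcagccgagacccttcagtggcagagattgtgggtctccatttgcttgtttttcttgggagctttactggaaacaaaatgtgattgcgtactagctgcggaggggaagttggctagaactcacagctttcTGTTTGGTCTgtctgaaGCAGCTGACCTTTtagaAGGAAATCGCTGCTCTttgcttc
The alignment runs over bases 148 to 239 of the Stat5a window and 157 to 248 of the Stat5b window. The STAT dimer motif TTCNNNGAA, which reads the same on both strands, had 0 matches in the 9 windows of the 6 STAT genes and occurred in 7.02% of 32851 mouse windows of that length. A missing match says only that these letters are not in the window.

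Stat2 was the member outside the siRNA targets with the largest siRNA ratio, and it stayed under 2-fold. Its measured probe set, 115806_at on U74B, had 219 with Stat5 siRNA and 183 with control siRNA at 30 min, 230 with Stat5 siRNA and 154 with control siRNA at 2 h, and 264 without IL-3. Control cells showed successively lower signals over the 3 times, and the siRNA cells lay between the unstimulated and the IL-3-treated control cells. The siRNA log2 ratio was 0.26 at 30 min, 1.35 times the spread, and 0.58 at 2 h, 2.34 times the spread and 165th from the highest of 4950. Against no IL-3 the control cells had -0.53 at 30 min and -0.77 at 2 h, 2.63 and 2.51 times the spread. The siRNA and the IL-3 ratio at each time share the control IL-3 array, and both move with its signal. The second Stat2 probe set, 164778_r_at, had signals between 10.5 and 33.5, all under the floor.

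Genes listed as STAT2 and IRF9 targets, on a list chosen with earlier results known, stood higher in the same siRNA cells. The Stat2 promoter window is therefore shown. It is chr10:128270248-128270497 of GRCm38.p6 on the plus strand, with capitals marking a match to the interferon response element GAAA, any 2 bases, GAAA, here read on the opposite strand and starting 222 bases before the gene's start.
Stat2: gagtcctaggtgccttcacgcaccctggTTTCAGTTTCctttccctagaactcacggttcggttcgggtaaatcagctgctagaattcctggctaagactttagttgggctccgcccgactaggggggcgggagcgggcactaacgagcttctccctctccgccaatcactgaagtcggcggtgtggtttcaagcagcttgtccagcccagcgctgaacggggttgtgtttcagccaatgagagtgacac
On either strand this motif occurred in 2.98% of all mouse windows and in 2 of the 9 STAT windows, this one and 1 of the 2 of Stat4. The STAT dimer motif had 0 matches in these 9 windows, so no overlap could occur. A match is not evidence of binding.

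Stat3 showed no siRNA difference beyond the technical spread on any measured probe set. On U74A 99099_at had 325 with Stat5 siRNA and 304 with control siRNA at 30 min, 324 with Stat5 siRNA and 357 with control siRNA at 2 h, and 288 without IL-3. The siRNA arrays lay within the range of the control arrays. 99100_at, also on U74A, had 228 with Stat5 siRNA and 214 with control siRNA at 30 min, 280 with Stat5 siRNA and 283 with control siRNA at 2 h, and 179 without IL-3. Its siRNA log2 ratios were 0.09 and -0.02, those of 99099_at 0.10 and -0.14, and the spread was 0.22 at both times.

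Under IL-3 both U74A probe sets of Stat3 were somewhat higher at 2 h in control cells, with log2 ratios of 0.31 and 0.66, 1.52 and 3.26 times the spread and short of 2-fold. A U74C probe set went another way. 140431_g_at had 172 with Stat5 siRNA and 174 with control siRNA at 30 min, but 65.4 with Stat5 siRNA and 60.6 with control siRNA at 2 h, and 80.9 without IL-3, the last 3 under the floor. It was thus at least 1.45-fold higher at 30 min than without IL-3 and not measured in either comparison at 2 h. The probe sets of Stat3 disagree on its course under IL-3 and not on the siRNA at 30 min, where the U74C ratio was -0.02. The fourth, 140432_r_at, lay between 5.88 and 30.7, under the floor throughout.

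Stat6 was read from 94331_at on U74A. It had 280 with Stat5 siRNA and 317 with control siRNA at 30 min, 325 with Stat5 siRNA and 274 with control siRNA at 2 h, and 266 without IL-3. Its siRNA log2 ratio was -0.18 at 30 min and 0.25 at 2 h, both within 1.16 times the spread and opposite in sign. Stat4, which is known mainly from T and NK cells, was not measured. Its probe set 102994_at had 62.7 with Stat5 siRNA and 56.9 with control siRNA at 30 min, 53.0 with Stat5 siRNA and 45.9 with control siRNA at 2 h, and 49.3 without IL-3.

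Beside the 2 targets, 5 measured probe sets of Stat2, Stat3 and Stat6 at 30 min and 4 at 2 h gave 0 changes of 2-fold or more with the siRNA. Their ratios ran from -0.18 to 0.26 at 30 min and from -0.14 to 0.58 at 2 h. Of all measured probe sets 0.863% at 30 min and 1.19% at 2 h passed that limit in either direction, so a count of 0 is near the background. Smaller differences than 2-fold could not be judged without replicate arrays. IL-3 gave 0 changes of 2-fold among the same genes at either time, where 1.41% of all measured probe sets passed at 30 min and 4.53% at 2 h. With the floor halved or signals not raised to it, 1 Stat3 probe set on U74C passed at 30 min.

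**Figure D2:**
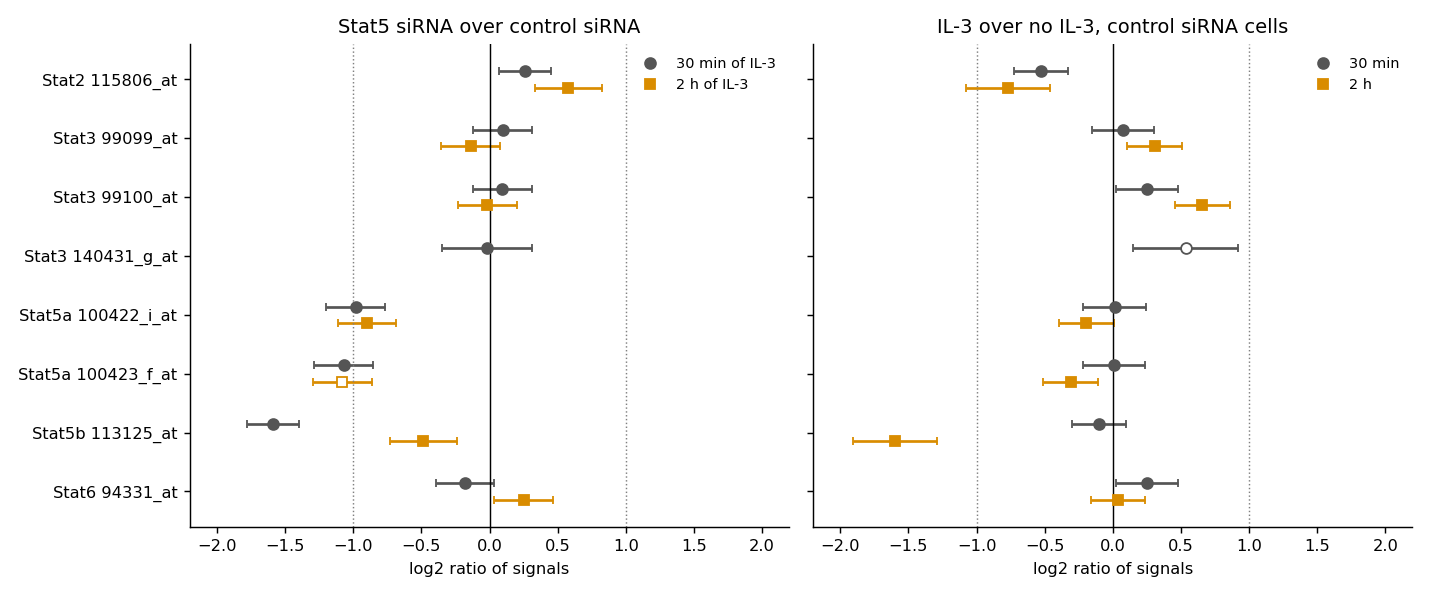
Log2 signal ratio of each measured STAT probe set with Stat5 siRNA over control siRNA (left) and with IL-3 over no IL-3 in control siRNA cells (right), with bars of 1 technical SD of a ratio, open symbols for bounds and dotted lines at 2-fold. The Stat5a probe sets lie near -1 on the left at both times, Stat5b lies at -1.59 and -0.49 on the left and at -1.60 on the right at 2 h, and no probe set of Stat2, Stat3 or Stat6 crosses a dotted line.

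The pathway around these factors was read from a list of 80 genes by role, of which 51 were measured in each siRNA comparison. The whole list was chosen with earlier results of these data known, so its counts are a description only. At 30 min 5 were 2-fold or more higher with Stat5 siRNA and 2 lower, with a median log2 ratio of -0.09. At 2 h 5 were higher and 3 lower, with a median of -0.04. Among all genes 0.308% were higher and 0.382% lower at 30 min and 0.504% higher and 0.43% lower at 2 h, with medians of 0.00081 and 0.0040. All 5 higher genes at each time were on the STAT2 and IRF9 target list. With the floor doubled 3 genes of the list passed at 30 min and 4 at 2 h. With IL-3 over no IL-3 in control cells, 8 of 48 measured genes were higher and 0 lower at 30 min, and 11 of 47 were higher and 1 lower at 2 h, against 0.711% higher and 0.343% lower among all genes at 30 min and 2.45% higher and 1.63% lower at 2 h. Of the higher genes 6 at each time reached the floor on 1 of the 2 arrays only, so that they were measured through the array where they were high.

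The measured receptor chains, which belong to the IL-3, IL-4 and interferon receptors, and the Janus kinases stayed under 2-fold with the siRNA. Of 8 measured receptor chains at 30 min and 7 at 2 h, and of 4 Janus kinases at both times, 0 passed it in a siRNA comparison. Among all genes 0.689% at 30 min and 0.935% at 2 h passed it in either direction, so a count of 0 is near the background. Il4ra, the IL-4 receptor chain that signals to STAT6, had 169 with Stat5 siRNA and 289 with control siRNA at 30 min, 356 with Stat5 siRNA and 649 with control siRNA at 2 h, and 151 without IL-3. The siRNA log2 ratios were -0.78 and -0.87. In control cells Il4ra was 4.30-fold higher at 2 h of IL-3 than without IL-3. Jak2, the kinase tied to the IL-3 receptor's beta chain, had siRNA ratios of 0.49 at 30 min and -0.25 at 2 h. Csf2rb, named after its values were seen, had 5446 with Stat5 siRNA and 8361 with control siRNA at 30 min, and 8115 with Stat5 siRNA and 8661 with control siRNA at 2 h. Its part in the siRNA differences was not tested.

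Of the negative regulators, 2 of 17 measured fell 2-fold or more with Stat5 siRNA at 30 min and 1 of 16 at 2 h. Among all genes 0.382% did so at 30 min and 0.43% at 2 h. Cish, a feedback inhibitor of cytokine receptors, had 389 with Stat5 siRNA and 1097 with control siRNA at 30 min, 645 with Stat5 siRNA and 1565 with control siRNA at 2 h, and 108 without IL-3. It was lower at both times, by 1.49 and 1.28 on the log2 scale, while its siRNA signals stayed above those without IL-3. Socs1, which blocks Janus kinases, had 101 with Stat5 siRNA and 277 with control siRNA at 30 min, at least 2.31-fold lower, a call that ended with the floor doubled. At 30 min Socs1 reached the floor on the control array only, so it had to differ to be measured. At 2 h it had 57.7 with Stat5 siRNA and 128 with control siRNA.

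Of the STAT5 target list, whose members were partly chosen with these results known, 1 of 11 measured genes fell at 30 min and 3 of 13 at 2 h. Among all genes 0.382% fell at 30 min and 0.43% at 2 h. The list's medians were -0.35 and -0.12, and 0 rose. With IL-3 over no IL-3 in control cells, 5 of 11 genes of this list were higher at 30 min and 8 of 12 at 2 h. Of those, 3 and 5 reached the floor on 1 of the 2 arrays only and so had to differ to be measured. Among all genes 0.711% were higher at 30 min and 2.45% at 2 h. Beside Cish, the genes of this list that fell with Stat5 siRNA at 2 h were Pim2 and Tnfrsf13b. Pim2, a survival kinase, had 198 with Stat5 siRNA and 411 with control siRNA at 2 h. Tnfrsf13b, a receptor for the B cell factor BAFF, had 643 with Stat5 siRNA and 2091 with control siRNA at 2 h. The log2 ratios were -1.05 and -1.70, and with the floor doubled that of Pim2 was -0.78. Tnfrsf13b at 30 min had 918 with Stat5 siRNA and 1345 with control siRNA, a ratio of -0.55. Residual Stat5 signal and these values are set side by side only.

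The STAT2 and IRF9 targets went the opposite way, on a list also chosen with earlier results of these data known. At 30 min 5 of 8 measured genes rose and at 2 h 5 of 9, with medians of 1.14 and 1.34 and 0 falling. Among all genes 0.308% rose at 30 min and 0.504% at 2 h. Of the list's measured genes 4 at 30 min and 5 at 2 h reached the floor on 1 of the 2 arrays only. Among them were 2 of the 5 that rose each time, so passing the filter already required a difference there. With the floor doubled 2 of these genes passed at each time, Bst2 and Oasl1 at 30 min and Bst2 and Oas2 at 2 h. Irf7, which drives interferon genes, had 447 with Stat5 siRNA and 41.4 with control siRNA at 30 min, at least 3.73-fold higher, and 329 with Stat5 siRNA and 44.2 with control siRNA at 2 h, at least 2.75-fold higher. Oas2, an oligoadenylate synthetase that senses double-stranded RNA, had 440 with Stat5 siRNA and 187 with control siRNA at 30 min, and 533 with Stat5 siRNA and 211 with control siRNA at 2 h.

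Bst2, a membrane protein that tethers viruses, had 981 with Stat5 siRNA and 434 with control siRNA at 30 min, and 1069 with Stat5 siRNA and 423 with control siRNA at 2 h. Oasl1 and Oasl2, relatives of Oas2, rose 2.14-fold and at least 2.33-fold at 30 min and 3.36-fold and at least 3.31-fold at 2 h. Irf9, the partner of STAT2, had 317 with Stat5 siRNA and 207 with control siRNA at 30 min and 261 with Stat5 siRNA and 166 with control siRNA at 2 h, log2 ratios of 0.62 and 0.65 that were short of 2-fold. Stat2 itself, had ratios of 0.26 and 0.58, of the same sign as its listed targets and smaller than their medians. The part of an interferon response in the siRNA differences was not tested.

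The lists for the other factors were small. Of 5 measured STAT3 targets at 30 min and 3 at 2 h 0 passed 2-fold with the siRNA. Among all genes 0.689% and 0.935% passed it in either direction, so a count of 0 is near the background. Fos, an AP-1 subunit with 1542 with Stat5 siRNA and 1944 with control siRNA at 30 min, had a ratio of -0.33. Of 2 measured STAT6 targets, Il4ra and Socs1, Socs1 was the 1 that fell at 30 min, where 0.382% of all genes fell. Since Socs1 was measured through the control array only, passing the filter already required a difference. Of the STAT4 target list 0 genes were measured.

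**Figure D3:**
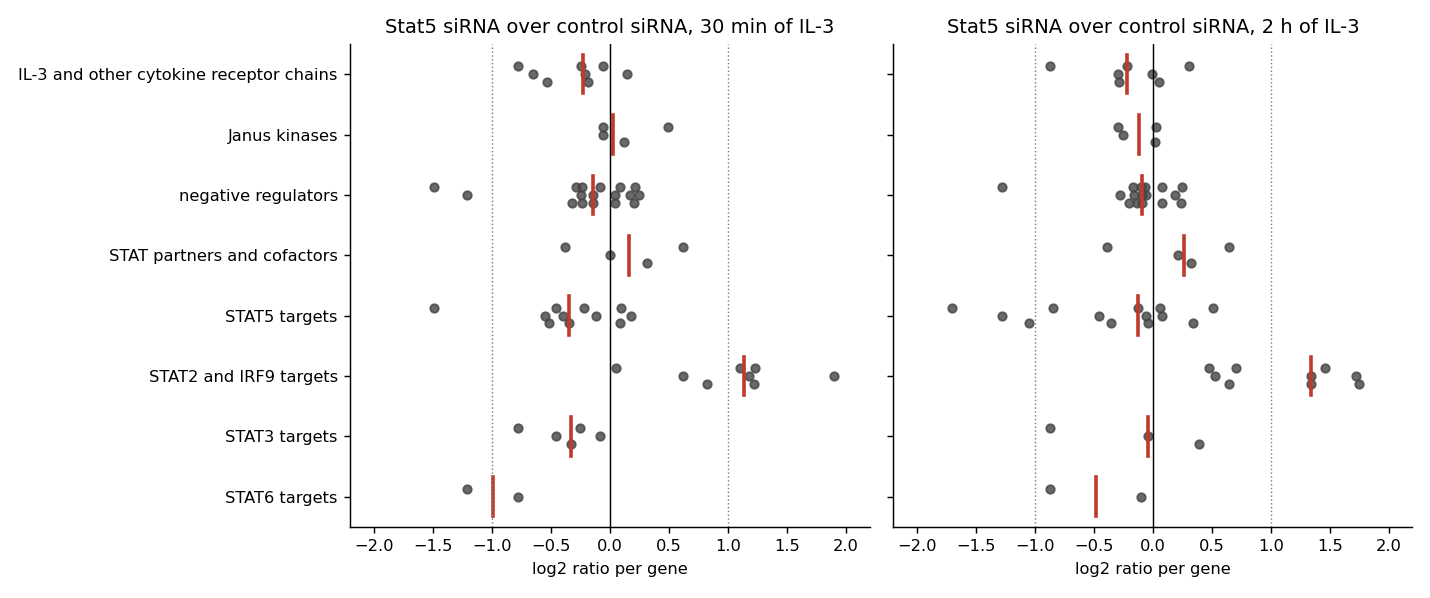
Log2 ratio of each measured gene of the pathway list with Stat5 siRNA over control siRNA at 30 min (left) and 2 h (right) of IL-3, by role, with 1 point per gene, the role's median as a red bar and dotted lines at 2-fold. The STAT2 and IRF9 targets have medians of 1.14 and 1.34, while all 4 Janus kinases and all measured receptor chains lie between the dotted lines at both times.

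Probe sets with the course most like that of Stat5a and Stat5b were sought over the 5 conditions, by the root mean square difference of log2 signals centred on their mean, among 10738 probe sets of other genes for Stat5a and 10739 for Stat5b. Nearest to Stat5a was Tyrobp, an adaptor of immune receptors, with a difference of 0.068 against an SD of 0.48 in the Stat5a course itself. Tyrobp had 212 with Stat5 siRNA and 401 with control siRNA at 30 min, 211 with Stat5 siRNA and 390 with control siRNA at 2 h, and 421 without IL-3. Its siRNA log2 ratios were -0.92 and -0.88, short of 2-fold. Tyrobp was picked for likeness over these same arrays, so ratios near those of Stat5a follow from the choice. Mpnd followed at 0.15, Lgals1, a galectin, at 0.16, and Rad52, a DNA repair gene, at 0.16. For Lgals1 and Rad52 the likeness is that of 1 of several probe sets. At 30 min the Lgals1 probe set had a siRNA ratio of -0.86 and the gene -0.55, and the Rad52 probe set had -0.69 and the gene -0.33, or 0.07 with the floor halved.

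The differences were larger for Stat5b, whose own course also varied more, with an SD of 0.87 against 0.48 for Stat5a. L1cam, a cell adhesion molecule, came first with a difference of 0.30. It had 176 with Stat5 siRNA and 403 with control siRNA at 30 min, 136 with Stat5 siRNA and 227 with control siRNA at 2 h, and 394 without IL-3. L1cam was thus 2-fold or more lower with the siRNA at 30 min, at a log2 ratio of -1.19, or -0.75 with the floor doubled, and at -0.74 at 2 h. As L1cam was picked for likeness to Stat5b over these same arrays, a lower siRNA signal at 30 min follows from the choice. Arl11 at 0.31, Grina at 0.35 and Chchd4 at 0.40 came from U74C. The Grina and Chchd4 probe sets can cross-hybridise, and these genes' values from their other probe sets at 30 min were -0.11 and 0.18, so the likeness belongs to those probe sets and not to the genes.

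**Figure D4:**
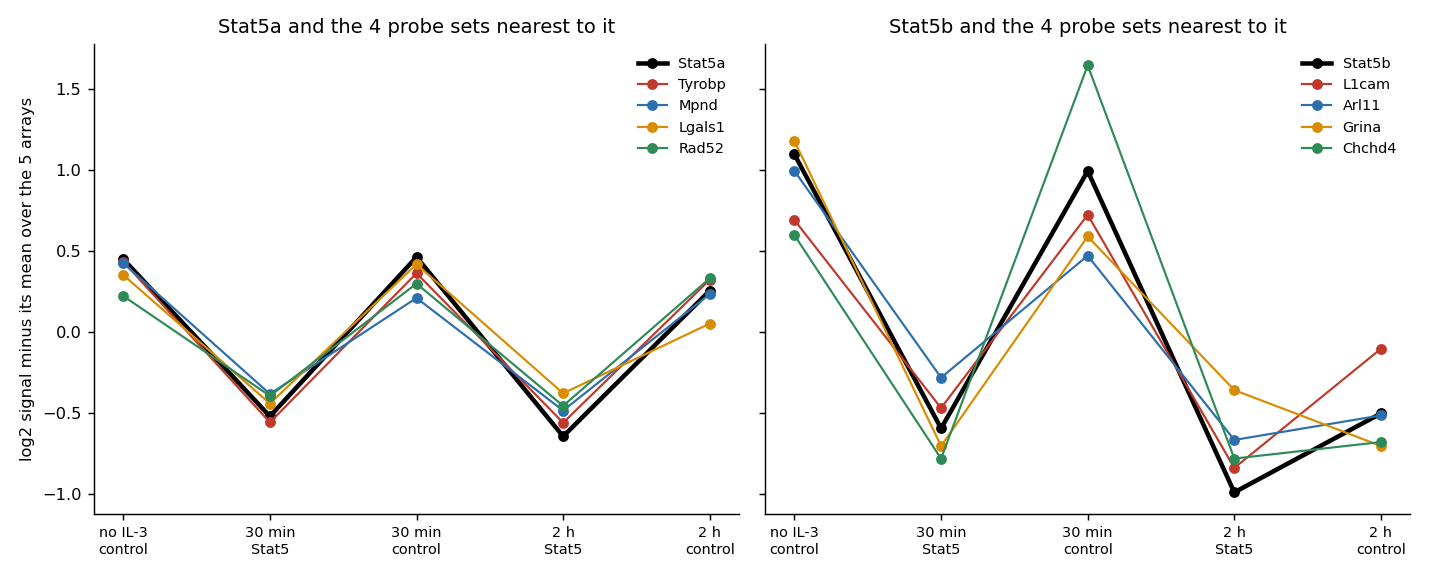
Log2 signal, raised to the floor where lower and centred on its mean over the 5 arrays, of Stat5a (left) and Stat5b (right) in black and of the 4 probe sets with the smallest root mean square difference to each, by condition. The 4 courses beside Stat5a lie within 0.16 of it by that measure, while those beside Stat5b differ by 0.30 to 0.40.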

How the data were processed

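Total RNA of Ba/F3-beta cells was labelled as biotinylated cRNA and hybridised to U74A, U74B and U74C arrays, per the labels' protocols. The deposited values are linear signal intensity values per probe set, which the authors computed with MAS5, per the submitters' processing notes. Detection calls were not used here, and no batch or scan date is given in the sources used here. Samples were grouped by title. The 15 arrays were scaled to 1 trimmed mean, leaving out 2% at each end. The floor of 119.866 is the signal that 14553 of 36701 non-control probe sets reached on their highest array, the number the design text gives as passing the submitters' filters.

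A gene's value was the median log2 ratio over its measured probe sets with 1 symbol. Those ending in _f_at, _r_at, _i_at or _x_at entered a comparison only where no other was measured in it. The written design scaled each array design by itself and let such probe sets enter only for genes with no other, and both steps were changed to match an earlier processing of these data. Of 15964 symbols 15927 are in the RefSeq gene table of GRCm38.p6. The technical spread pooled deviations between probe sets of 1 gene that cannot cross-hybridise and reach the floor on both arrays.

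Named were all 6 STAT genes, the pathway genes past 2-fold in a siRNA comparison, the gene with the largest ratio per role, and the 4 probe sets nearest in course to Stat5a and to Stat5b that reached the floor on at least 3 arrays. Members and lists were chosen with earlier results of these data known. With 1 array per condition and design no test was made, and precision rests on so few arrays. The steps were tested on simulated data. Python 3.11.15, NumPy 2.4.6 and pandas 2.3.3 were used. The 9 alternatives were a halved or doubled floor, signals not raised to it, values as deposited, median scaling, quantile normalization, the brightest probe set per gene, no cross-hybridising probe sets, and U74A and U74B only.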

Additional observations from a re-analysis of the deposited data

Results flagged for a closer look

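Several STAT ratios had opposite signs at the 2 times or in the 2 siRNA groups, each resting on 1 array per condition, and the difference was not tested. With Stat5 siRNA over control siRNA, Stat3 had a log2 ratio of 0.0945 at 30 min and -0.077 at 2 h, and Stat6 had -0.18 at 30 min and 0.25 at 2 h. Under other settings Stat3 ran from -0.01 to 0.10 at 30 min and from -0.14 to 0.03 at 2 h, so its sign changed with the setting. With IL-3 over no IL-3 in control cells, Stat5a had 0.00981 at 30 min and -0.252 at 2 h. From 30 min to 2 h of IL-3, Stat2 had 0.0716 in Stat5 siRNA cells and -0.247 in control cells, Stat3 had -0.00281 in Stat5 siRNA cells and 0.232 in control cells, and Stat6 had 0.217 in Stat5 siRNA cells and -0.212 in control cells. These last ratios come from the same 4 arrays as the siRNA ratios and are not further evidence. The technical spread of such a ratio was between 0.19 and 0.31 on U74A and U74B.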

How the results depend on the processing

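The direction of the Stat5a and Stat5b siRNA ratios was negative under all settings that gave a value. Stat5a ran from -1.13 to -0.69 at 30 min and from -1.15 to -0.49 at 2 h, and Stat5b from -1.59 to -0.94 at 30 min and from -0.49 to -0.43 at 2 h. The floor was the choice that moved them. With it doubled, Stat5a was at -0.69 at 30 min and -0.49 at 2 h, Stat5b was at -1.06 at 30 min and had no value at 2 h. With it halved, Stat5b was at -0.94 at 30 min, as the dim U74A probe set entered with a bound. The count of Stat2, Stat3, Stat4 and Stat6 probe sets past 2-fold with IL-3 at 30 min was 0, and 1 with the floor halved or signals not raised. With the floor doubled, and fewer genes measured, the pathway list gave 3 instead of 7 genes past 2-fold for the siRNA at 30 min, 4 instead of 8 at 2 h, 5 instead of 8 for IL-3 at 30 min and 7 instead of 12 at 2 h. Stat5a had no value without probe sets that can cross-hybridise. With values as deposited all 106 results stayed within the technical spread of the reported value or, for counts, near it. Under median scaling and under quantile normalization 105 did. Doubling the floor kept 54 there, moved 32 and left 20 without a value. Halving the floor moved 18, and leaving low signals unraised moved 15. Reading each gene from its brightest probe set alone moved 5. Dropping probe sets that can cross-hybridise left 6 without a value, and so did dropping U74C. In any setting 0 called results changed sign. Median scaling turned the calls over all probe sets for IL-3 at 30 min to 155 higher and 54 lower, against 109 higher and 78 lower. No paired analysis was possible because each condition had 1 array per design and groups share 1 replicate number. A fit that takes the 2 times as pairs was not run. Leaving out a replicate was not possible for the same reason. Signals near or under the floor, such as Stat4 and the second probe sets of Stat2 and Stat5b, cannot show a change.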
